A study of Mus musculus with 12 samples.

Results

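The 10 genes described here are Trp53, which encodes the transcription factor p53, and 9 genes that are known as its targets or are commonly read as such: Cdkn1a, Mdm2, Ccng1, Bax, Gadd45a, Trp53inp1, Sesn2, Phlda3 and Gdf15. They were chosen by gene symbol, with earlier results of these data known, as 10 of the 24421 symbols in the deposited tables. Each was read on the transcript with the highest total count. The data are 12 RNA-seq libraries of whole mouse kidney, 3 in each of 4 groups. All mice were 6-week-old males, labelled C57BL/6 and, by the study's methods, of a C57BL/6J background. The 2 baseline groups were WT and Tet2-/- mice that are described as healthy controls and had no operation. In the 2 ischemia-reperfusion (IR) groups, WT and Tet2-/- mice had the vessels of the right kidney clamped for 60 min and the left kidney removed, and tissue was taken 24 h after reperfusion. The Tet2-/- mice were bred from heterozygous pairs as knockouts, in the whole animal, of Tet2, an enzyme that oxidises methylated cytosine. No sham-operated library was analysed here, so an IR difference also holds the operation and the loss of the other kidney.

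p53 is held at a low level in resting cells because the ubiquitin ligase Mdm2 marks it for degradation, and it is stabilised after DNA damage and other stress, mostly without a change in its transcript. Stabilised p53 binds a response element made of a pair of like half-sites and switches on genes that stop the cell cycle, trigger cell death, repair DNA or restrain metabolism, and also Mdm2, which closes a feedback loop. In the injured kidney the tubule epithelium is the best known place of this response, and the cell cycle inhibitor p21, encoded by Cdkn1a, is its most studied product there. Several of the genes also answer to other regulators: Gdf15, Sesn2 and Gadd45a, for example, are known to be switched on by ATF4 and CHOP under amino acid or endoplasmic reticulum stress.

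The sequence that ties these genes together is the p53 response element, and the following stretches are shown because they are the closest matches found near the start of a member. The mm9 genome (NCBIM37) was searched on both strands, from 3000 bases before to 3000 bases after the start of each transcript, for the p53 consensus of 20 bases with no spacer between the half-sites, the C and G of each half-site core intact and at most 2 mismatches. Of the 10 genes, 3 held a match, each with 1 mismatch. In the stretches, which are written 5′ to 3′ on the gene's own strand, capitals mark the match and lower case its flanks.
Cdkn1a: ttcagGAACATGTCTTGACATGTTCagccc
Ccng1: ccggaACGCAAGCCCGGGCTAGTCTgcgcc
Gdf15: aggggTGACTTGCCTGAACTTGCCTtttct
The Cdkn1a match (chr17:29227873-29227892, plus strand) lay 2832 bases before the start, outside the transcript. The Ccng1 match (chr11:40568438-40568457, minus strand) lay 341 bases after the start, in an intron. The Gdf15 match (chr8:73155865-73155884, minus strand) lay 340 bases before the start of the transcript counted here, in noncoding exon sequence of another annotated transcript. Of 24351 windows of the same length around all starts, 3.78% held a match at up to 2 mismatches and 0.793% at up to 1 mismatch. A match is a description of the letters and not evidence of binding, and the absence of one in the other 7 windows says only that these letters are not there.

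Total counts per library, with 1 transcript for each gene, ranged from 51007366 to 107969888. The Tet2 row, read first as a check of the labels, was not lower in the libraries labelled Tet2-/- at baseline: its FPKM (fragments scaled by transcript length and library depth) was 9.15, 6.25 and 7.33 in the WT and 9.24, 16.6 and 10.3 in the Tet2-/- libraries. After IR it was 9.34, 3.97 and 3.86 in the WT and 2.64, 3.20 and 1.76 in the Tet2-/- libraries. The part of the gene that was deleted is not given in the sources used here, so this row does not settle the label, and "Tet2-/-" below means the libraries labelled so. Defining markers of kidney epithelium, such as Lrp2, Umod and Aqp2, were above 0 in all 12 libraries. Their summed FPKM (11 genes) was 2499 to 3862 in 11 libraries and 891 in Tet2-/- IR replicate 3. Their mean log2(FPKM + 0.1) was 5.56 to 5.76 in Tet2-/- baseline and 5.03, 5.39 and 4.49 in Tet2-/- IR libraries, which did not overlap. In WT it was 5.46 to 6.24 at baseline and 5.04 to 5.56 after IR. By the test described below, 5 of the 11 were called lower and 2 higher after IR in Tet2-/- kidneys, beside 11.6% and 12.7% of all genes. Mean log2(FPKM + 0.1) of 10 adipocyte markers was 2.27 and 3.54 in WT baseline replicates 2 and 3 and 3.66 in Tet2-/- IR replicate 3, against at most 0.45 in the other 9 libraries. Their summed FPKM was 613 in WT baseline replicate 3 and 668 in Tet2-/- IR replicate 3. In WT baseline replicate 2 the sum (473) lay within the Tet2-/- baseline range (418 to 497). High adipocyte markers, in the text below, refers to the mean log2 scale. In bulk tissue, fewer cells of a type and less RNA per cell cannot be told apart.

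After IR, 4 of the 10 genes rose in Tet2-/- kidneys and passed the test: Cdkn1a 13.5-fold, Gdf15 11-fold, Phlda3 3.94-fold and Gadd45a 2.56-fold. Calls are those of edgeR's quasi-likelihood test on TMM-normalized counts: the Benjamini-Hochberg adjusted p, taken over all genes tested, had to be under 0.05, and the log2 fold change above 1 or below −1. By that rule, 24.3% of the 16359 genes tested were called in this comparison, and 12.7% of the genes tested were called higher. The 4 of 10 called higher stand beside that share as description only, since the genes were chosen with earlier results known. In WT kidneys none of the 10 was called after IR, where 2.35% of 16015 genes were. By edgeR, 5 of the 10 were under an unadjusted p of 0.05 there, as were 3640 of the 16015 genes tested, and DESeq2 called 1, Gdf15, where it called 2.67% of all genes higher. Between the genotypes at baseline edgeR called 0 of the 10, with 4 under an unadjusted p of 0.05 (1891 of all genes), and 0.0124% of 16086 genes were called by it. DESeq2 called 1 of the 10 there, Phlda3, as lower, and with it 1.6% of all genes were called lower. Between the genotypes after IR, Cdkn1a alone was called by edgeR, 4.66-fold higher in Tet2-/- kidneys, where 6.15% of 16186 genes were called, 2.3% as higher and 3.85% as lower. The call was lost in each of the 6 fits with 1 library left out. DESeq2 called Gdf15 there as well, where it called 838 of all genes higher. The comparisons share libraries: each baseline and each IR group stands in 2 of them, and all stand in the interaction.

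**Figure D1:**
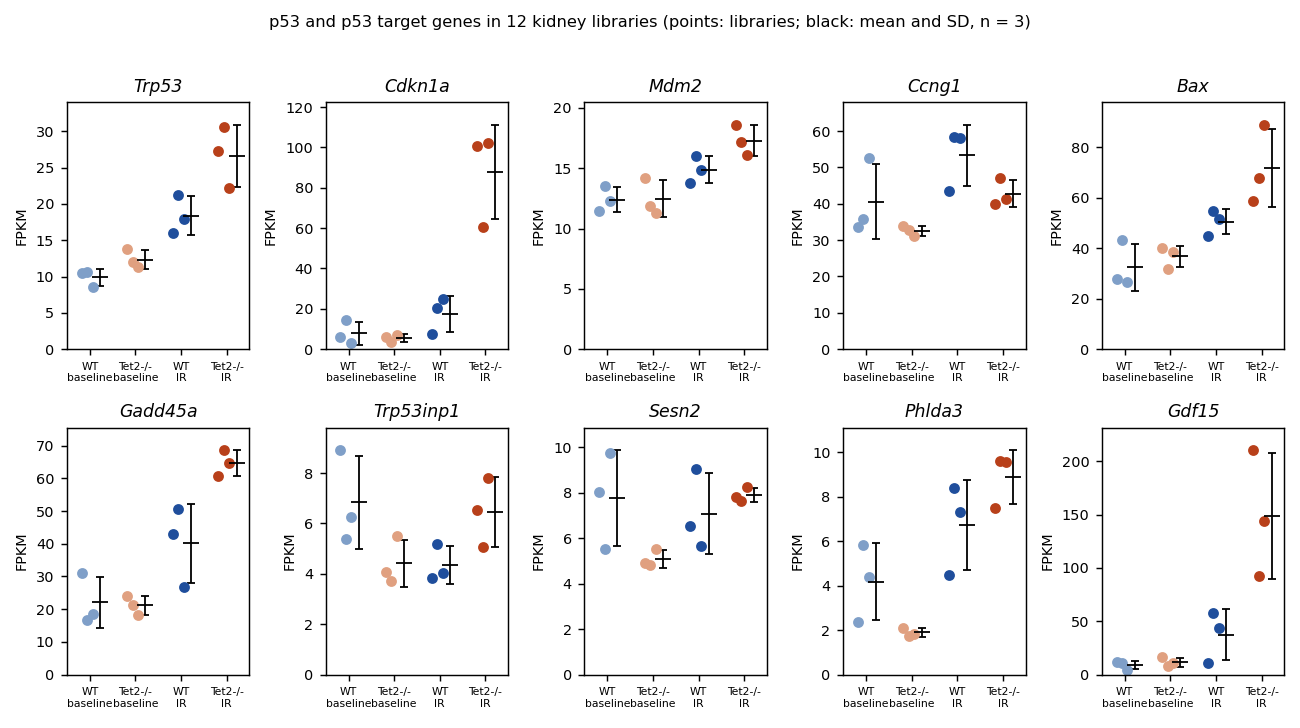
FPKM (y axis, linear, from 0) of the 10 genes in the 12 libraries, with 1 panel for each gene and the 4 groups on the x axis; points are libraries, and the black bar and whiskers are the mean and SD of 3. For Cdkn1a and Gdf15 the 3 Tet2-/- IR libraries stand above the other 9, while the group means of Mdm2 run only from 12.4 to 17.3 FPKM.

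Levels of different genes can be set side by side on the FPKM scale, which is per length. At WT baseline the mean level was highest for Ccng1 (40.6 ± 10.4 FPKM, SD, n = 3), Bax (32.5 ± 9.38) and Gadd45a (22.0 ± 7.93), and lowest for Phlda3 (4.19 ± 1.74). Ccng1 and Bax overlapped each other in their libraries, as did Bax and Gadd45a. Mdm2 (12.4 ± 1.05) was clear of Gadd45a above and of Trp53 (9.90 ± 1.15) below, and from Trp53 down each gene overlapped the next in the order Gdf15, Cdkn1a, Sesn2, Trp53inp1 and Phlda3. At Tet2-/- baseline the order was the same except that Bax (36.8 ± 4.24) stood above Ccng1 (32.5 ± 1.38), and these overlapped. In WT IR kidneys Ccng1 (53.3 ± 8.40) was still first and Gdf15 (37.2 ± 24) had moved to the fourth place, its libraries overlapping those of Gadd45a and Trp53 on either side. In Tet2-/- IR kidneys the order was led by Gdf15 (149 ± 59.1) and Cdkn1a (87.8 ± 23.4), whose libraries overlapped, with Bax (71.9 ± 15.5) and Gadd45a (64.6 ± 3.99) next. The spread between libraries of 1 group was widest for Cdkn1a at WT baseline, with a coefficient of variation of 72.5%, and for Gdf15 in WT IR kidneys, with 64.5%. It was narrowest for Sesn2 in Tet2-/- IR kidneys, with 3.92%.

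Trp53 (NM_001127233, chr11:69393861-69405375, plus strand) encodes p53 itself. Its FPKM in replicates 1 to 3 was 10.5, 10.6 and 8.57 in WT baseline, 13.7, 12 and 11.2 in Tet2-/- baseline, 16.0, 21.3 and 17.9 in WT IR and 27.2, 30.6 and 22.1 in Tet2-/- IR libraries. The 4 groups did not overlap and stood in that order. The log2 fold change of IR against baseline was 0.83 ± 0.15 (SE) in WT (adjusted p = 0.0380, edgeR's quasi-likelihood test) and 0.85 ± 0.13 in Tet2-/- kidneys (adjusted p = 0.00169), each past the p threshold, as 1.88% and 22.9% of all genes were with a higher level, and under the fold threshold. The WT value was past the p threshold in 1 of the 6 fits with 1 library left out, that without WT IR replicate 1, and had an adjusted p of 0.0830 to 0.128 by edgeR in the other 5. The interaction, which is the IR change in Tet2-/- minus that in WT over all 12 libraries, was 0.05 ± 0.19 (edgeR, adjusted p = 0.888). The genotype differences were 0.41 ± 0.13 at baseline (edgeR, adjusted p = 0.326) and 0.43 ± 0.14 after IR (adjusted p = 0.105). Without TMM, on library sizes alone, the IR change in Tet2-/- kidneys was 1.08 and passed both thresholds. The ratio of mean FPKM was 2.16, so that Trp53 also passed with the fold limit set on mean FPKM, which called 5 of the 10 genes higher in Tet2-/- kidneys where 16.6% of all genes were. Most of the Trp53 transcript has a copy on chr17:54558922-54560561 with 87.6% identity over 1792 aligned bases, and how reads that match both were counted is not given in the sources used here.

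Mdm2 (NM_010786, chr10:117125931-117147814, minus strand) encodes the ligase that degrades p53 and is itself a p53 target. Its FPKM was 11.4, 13.5 and 12.2 in WT baseline, 14.2, 11.9 and 11.3 in Tet2-/- baseline, 13.8, 16.0 and 14.9 in WT IR and 18.6, 17.2 and 16.1 in Tet2-/- IR libraries. On this scale both IR groups stood above their baseline group with no overlap, whereas on TMM-normalized counts both pairs of groups overlapped. The log2 fold changes were 0.21 ± 0.12 in WT and 0.22 ± 0.12 in Tet2-/- kidneys (edgeR's adjusted p = 0.354 and 0.193). TMM factors, which FPKM does not carry, were 1.01 to 1.17 in Tet2-/- IR libraries and 0.930 to 0.970 in Tet2-/- baseline libraries. With library sizes alone the median log2 fold change of all genes in that comparison was 0.27, against 0.04 with TMM, and 67.2% of the calls were higher, against 52.3%.

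Cdkn1a (NM_007669, chr17:29230714-29237667, plus strand) encodes p21, which binds cyclin-dependent kinases and stops the cell cycle; its upstream match to the p53 consensus is printed above. Its FPKM was 6.23, 14.2 and 3.16 in WT baseline, 5.87, 3.56 and 7.08 in Tet2-/- baseline, 7.46, 20.4 and 24.7 in WT IR and 101, 60.7 and 102 in Tet2-/- IR libraries. The 3 Tet2-/- IR libraries were the highest of the 12, and WT IR replicate 1 lay among the baseline libraries. Cdkn1a rose by 3.75 ± 0.35 on the log2 scale after IR in Tet2-/- kidneys (adjusted p = 3.0e-04, edgeR's quasi-likelihood test), and leaving out any 1 of the 6 libraries gave 3.51 to 4.01, each called. In WT kidneys the value was 1.13 ± 0.62 (edgeR, adjusted p = 0.329). Between genotypes it was −0.42 ± 0.52 at baseline (edgeR, adjusted p = 0.731), and this turned to 0.32 without WT baseline replicate 2, the highest baseline library. After IR it was 2.22 ± 0.49 higher in Tet2-/- kidneys (edgeR, adjusted p = 0.0362), but the call was lost when any 1 of the 6 libraries was left out (log2 fold change 1.86 to 2.64, adjusted p 0.0529 to 0.0970). The interaction was 2.67 ± 0.78 (edgeR, adjusted p = 0.0541).

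Ccng1 (NM_009831, chr11:40562054-40568788, minus strand) encodes cyclin G1, an early known p53 target that acts on Mdm2. Its FPKM was 33.6, 35.7 and 52.6 in WT baseline, 33.8, 32.7 and 31.0 in Tet2-/- baseline, 43.6, 58.4 and 58.0 in WT IR and 39.9, 47.0 and 41.4 in Tet2-/- IR libraries. WT baseline replicate 3 lay inside the range of the WT IR libraries, and it is one of those with the high adipocyte markers. The log2 fold change of IR was 0.33 ± 0.23 in WT and 0.14 ± 0.12 in Tet2-/- kidneys (edgeR, adjusted p = 0.434 and 0.381). It was the 1 member of the 10 with a lower fitted value in Tet2-/- than in WT kidneys after IR, −0.43 ± 0.18 (edgeR, adjusted p = 0.163). A stretch of 239 bases of its transcript has a copy with 96.2% identity on another chromosome.

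Gadd45a (NM_007836, chr6:66985090-66987401, minus strand) encodes a small protein that binds PCNA and CDK1 and is induced by DNA damage with or without p53. Its FPKM was 31.1, 16.5 and 18.5 in WT baseline, 23.9, 21.2 and 18.3 in Tet2-/- baseline, 43.0, 50.6 and 26.7 in WT IR and 60.6, 68.6 and 64.7 in Tet2-/- IR libraries. All Tet2-/- IR libraries stood above the other 9, and WT IR replicate 3 lay below WT baseline replicate 1. Gadd45a rose by 1.36 ± 0.13 on the log2 scale in Tet2-/- kidneys after IR (edgeR's quasi-likelihood test, adjusted p = 3.0e-04; 1.28 to 1.44 with 1 library left out). In WT kidneys the log2 fold change was 0.78 ± 0.29 (edgeR, adjusted p = 0.173), and between the genotypes after IR it was 0.61 ± 0.19 (adjusted p = 0.0853). E230016M11Rik overlaps Gadd45a on the other strand, and its own FPKM was 3.97 to 6.45 over the 6 baseline libraries, 5.77 to 9.96 in WT IR and 11.3 to 14.1 in Tet2-/- IR libraries. Whether the counting used strand is not given in the sources used here, so reads from the pair cannot be told apart.

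Bax (NM_007527, chr7:52717065-52722268, minus strand) encodes a protein that opens the outer mitochondrial membrane in apoptosis. Its FPKM was 27.7, 43.3 and 26.5 in WT baseline, 39.9, 32.0 and 38.4 in Tet2-/- baseline, 45.0, 54.8 and 51.6 in WT IR and 58.8, 67.9 and 89.0 in Tet2-/- IR libraries. Each IR group stood above both baseline groups, and Tet2-/- above WT after IR. The log2 fold change of IR was 0.58 ± 0.20 in WT (edgeR, adjusted p = 0.160) and 0.72 ± 0.20 in Tet2-/- kidneys (adjusted p = 0.0222, under the fold threshold). The highest Bax value came from Tet2-/- IR replicate 3, the library with low epithelial and high adipocyte markers, and without it the log2 fold change in Tet2-/- kidneys was 0.47.

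Trp53inp1 (NM_001199105, chr4:11083588-11101524, plus strand) encodes a stress-induced protein that takes part in autophagy and in p53-dependent cell death. Its FPKM was 8.91, 5.38 and 6.24 in WT baseline, 4.09, 3.70 and 5.48 in Tet2-/- baseline, 3.82, 5.20 and 4.04 in WT IR and 6.52, 5.05 and 7.81 in Tet2-/- IR libraries. It was the 1 member whose WT IR libraries all lay below the WT baseline libraries, while the Tet2-/- groups overlapped with the higher mean after IR. The log2 fold change of IR was −0.72 ± 0.22 in WT and 0.30 ± 0.24 in Tet2-/- kidneys (edgeR, adjusted p = 0.120 and 0.339). The interaction of 1.07 ± 0.35 did not pass by edgeR (adjusted p = 0.0790), and with library sizes alone it was 1.19 (adjusted p = 0.0408).

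Phlda3 (NM_013750, chr1:137662662-137665711, plus strand) encodes a p53 target that holds back the kinase Akt. Its FPKM was 2.35, 5.82 and 4.40 in WT baseline, 2.12, 1.74 and 1.82 in Tet2-/- baseline, 4.46, 8.38 and 7.34 in WT IR and 7.48, 9.62 and 9.55 in Tet2-/- IR libraries. All Tet2-/- baseline libraries lay below WT baseline, and the 2 highest WT baseline values came from the libraries with high adipocyte markers. After IR the genotypes overlapped. Phlda3 rose by 1.98 ± 0.19 on the log2 scale in Tet2-/- kidneys after IR (edgeR's quasi-likelihood test, adjusted p = 3.6e-04; 1.86 to 2.07 with 1 library left out), and the value in WT kidneys was 0.63 ± 0.38 (adjusted p = 0.366). The baseline genotype difference was −1.06 ± 0.32 by edgeR (adjusted p = 0.311) and passed with DESeq2 (−1.05, adjusted p = 0.0440). Without WT baseline replicates 2 and 3, which leaves 1 WT baseline library, it was −0.22. The genotype difference after IR was 0.30 ± 0.27 (edgeR, adjusted p = 0.499).

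Sesn2 (NM_144907, chr4:132048722-132066371, minus strand) encodes sestrin 2, which restrains mTORC1 when leucine is short. Its FPKM was 8.03, 5.52 and 9.73 in WT baseline, 4.89, 4.82 and 5.54 in Tet2-/- baseline, 6.54, 9.07 and 5.65 in WT IR and 7.81, 7.64 and 8.24 in Tet2-/- IR libraries. The WT groups overlapped and the Tet2-/- IR libraries stood above the Tet2-/- baseline libraries. The log2 fold change of IR was −0.21 ± 0.25 in WT and 0.38 ± 0.14 in Tet2-/- kidneys (edgeR, adjusted p = 0.659 and 0.0640).

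Gdf15 (NM_011819, chr8:73153293-73155534, minus strand) encodes a secreted stress hormone of the TGF-beta superfamily that lowers appetite through a hindbrain receptor; its match to the p53 consensus is printed above. Its FPKM was 12.1, 10.7 and 4.43 in WT baseline, 16.3, 7.68 and 10.5 in Tet2-/- baseline, 10.6, 57.3 and 43.8 in WT IR and 211, 92.8 and 144 in Tet2-/- IR libraries. WT IR replicate 1 lay among the baseline libraries, and every Tet2-/- IR library was above every other library. Gdf15 rose by 3.46 ± 0.40 on the log2 scale in Tet2-/- kidneys after IR (adjusted p = 6.2e-04, edgeR's quasi-likelihood test; 3.12 to 3.78 with 1 library left out). In WT kidneys the log2 fold change of 1.99 ± 0.64 was not called (edgeR, adjusted p = 0.135), whereas leaving out WT IR replicate 1 gave 2.44, which was called (adjusted p = 0.0303). After IR it was 1.91 ± 0.61 between the genotypes by edgeR (adjusted p = 0.0923), called with DESeq2 (adjusted p = 0.00684) and in a single fit of all 12 libraries (adjusted p = 0.0407).

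**Figure D2:**
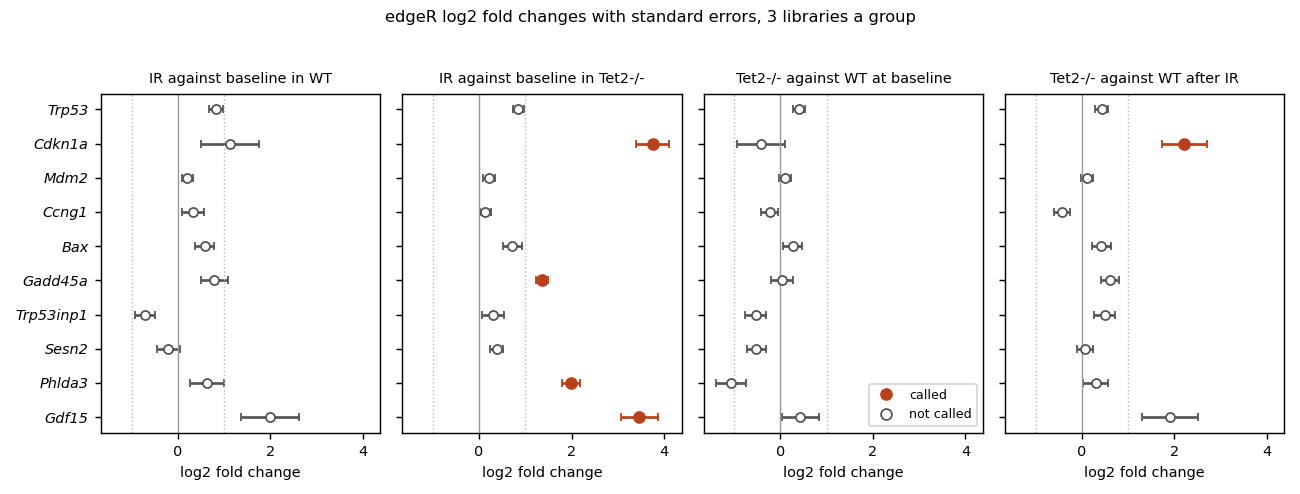
Log2 fold change (x axis) of the 10 genes (y axis) in the 4 comparisons, 1 panel each, fitted by edgeR on 3 libraries a group; whiskers are 1 standard error, filled points were called and dotted lines mark a log2 fold change of 1 in either direction. The 4 called points after IR in Tet2-/- kidneys run from 1.36 for Gadd45a to 3.75 for Cdkn1a, and the one called point between genotypes after IR is Cdkn1a at 2.22.

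Over the 10 genes, the median log2 fold change of IR was 0.61 in WT and 0.78 in Tet2-/- kidneys, where the medians of all genes tested were −0.03 and 0.04. Between the genotypes it was −0.10 at baseline and 0.42 after IR, against 0.00 and 0.04 for all genes. On the FPKM scale, 3 of the 10 were higher in WT IR than in WT baseline libraries without overlap and 1 was lower, with 18.9% and 10.4% of all genes tested in those classes; on TMM-normalized counts 1 (Trp53) was higher and 1 (Trp53inp1) lower, with 14.8% and 14.6% of all genes. In Tet2-/- kidneys 9 of the 10 were higher without overlap and 0 lower, with 40.5% and 17.9% of all genes, and on TMM-normalized counts the numbers were 8 and 0, with 31.2% and 25.6%. At baseline 1 of the 10, Trp53, was higher in Tet2-/- libraries and 1, Phlda3, lower without overlap, on both scales, with 3.06% and 16.5% of all genes by FPKM and 6.86% and 11.8% by TMM-normalized counts. After IR 6 of the 10 were higher in Tet2-/- libraries and 0 lower, with 22.0% and 14.6% of all genes, and on TMM-normalized counts 5 were higher and 1 (Ccng1) lower, with 17.3% and 18.9%.

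The interaction asks whether the IR change differed between the genotypes. None of the 10 passed it by edgeR (0 called, 3 under an unadjusted p of 0.05, as were 4551 of all genes), where 9.18% of 16741 genes were called at an adjusted p under 0.05 with no fold threshold. The 3 were Cdkn1a (2.67 ± 0.78), Phlda3 (1.39 ± 0.44, adjusted p = 0.0709 by edgeR) and Trp53inp1 (1.07). With the replicate number as a block, an alternative fit although no label ties the libraries, 2 of the 10 passed: Cdkn1a (2.67, adjusted p = 0.0352 by edgeR) and Phlda3 (1.34, adjusted p = 0.0146), with 12.6% of all genes passing. Without WT baseline replicates 2 and 3 the Phlda3 interaction was 0.51, a value that rests on 1 WT baseline library. The number was also 2 with DESeq2 (Cdkn1a and Phlda3), where 5.9% of all genes passed with a higher and 7.69% with a lower value, 3 with library sizes alone (Trp53inp1 as well), where 6.74% and 4.18% did, and 1 without WT baseline replicate 1 (Phlda3) or without WT baseline replicate 3 (Cdkn1a). Whether the rise after IR, which passed the test in Tet2-/- and not in WT kidneys, differs between the genotypes therefore depended on the fit. It was not shown by edgeR with TMM, all 12 libraries and no block.

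Family relatives of the 10 genes, 15 in number and 14 of them tested, moved in both directions after IR. In Tet2-/- kidneys 4 rose: Phlda1, a paralog of Phlda3, by 2.12 ± 0.25 on the log2 scale, Sesn3 by 1.75 ± 0.26, the BAX partner Bak1 by 1.73 ± 0.22 and the CDK inhibitor Cdkn1c by 1.38 ± 0.33, and 2 fell: Gadd45g by 2.35 ± 0.30 and Sesn1 by 1.30 ± 0.18 (edgeR, adjusted p from 6.5e-04 to 0.0126), beside 12.7% and 11.6% of all genes called higher and lower. The Cdkn1c call was lost without Tet2-/- baseline replicate 1 (edgeR, adjusted p = 0.0514) and in the single fit of all 12 libraries (adjusted p = 0.0602). Gadd45g was the 1 relative called in WT kidneys, where 0.887% of all genes were called lower, at 296, 210 and 86.3 FPKM at baseline and 46.7, 35.6 and 47.6 after IR, which is a log2 fold change of −2.24 ± 0.42 (edgeR, adjusted p = 0.0428), and the call was lost in 5 of the 6 fits with 1 library left out (adjusted p up to 0.156). Gadd45a and Gadd45g thus went opposite ways in Tet2-/- kidneys, as did Sesn3 and Sesn1. Between the genotypes after IR, Bak1 was 1.04 ± 0.23 higher in Tet2-/- kidneys (edgeR, adjusted p = 0.0376), a call lost in 5 of the 6 fits with 1 library left out, and 2.3% of all genes were called higher. DESeq2 called 3 relatives higher there (Bak1, Cdkn1c and Phlda1), beside 4.14% of all genes. At baseline and for the interaction none of the relatives was called by edgeR, with 4 and 6 of them under an unadjusted p of 0.05. With the replicate block 4 of the 15 passed the interaction, as did 12.6% of all genes, and these 4 had the higher value in Tet2-/- kidneys (Bak1, Cdkn1c, Phlda1 and Sesn3). With the block Sesn1 was also called lower in WT kidneys after IR, beside Gadd45g, where 3.49% of all genes were called lower. DESeq2 called 3 of the relatives higher (Cdkn1c, Phlda1 and Sesn3) and 1 lower (Phlda2) in the interaction, and 2 lower at baseline (Sesn3 and Trp63), where it called 5.9% of all genes higher and 7.69% lower in the interaction and 1.6% lower at baseline.

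Mdm4, which binds and holds p53, was at 6.64 to 13.9 FPKM over the 12 libraries; in Tet2-/- kidneys its log2 fold change after IR was −0.82 ± 0.16 (edgeR, adjusted p = 0.00514), under the fold threshold, and edgeR with TMM, without the block and with all libraries of a comparison, called it in none. Trp63 and Trp73, the p53 relatives of stratified epithelia and neurons, were at most 0.648 and 0.029 FPKM. Cdkn1b, the second CDK inhibitor of the p21 family, was at 10.9 to 13.7 FPKM in WT baseline and 8.0 to 8.51 in Tet2-/- baseline libraries, which did not overlap (edgeR, log2 fold change −0.51 ± 0.12, adjusted p = 0.239). Ccng2, Bok, Gadd45b, Trp53inp2 and Phlda2 were not called in any comparison by that fit.

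A further 43 p53 targets, 42 of them tested in the comparisons of 2 groups, were listed by function. After IR 2 of the 42 were called higher in WT kidneys and 0 lower, and in Tet2-/- kidneys 10 were called higher and 6 lower. The background was 1.46% of genes called higher and 0.887% lower in WT kidneys, and 12.7% and 11.6% in Tet2-/- kidneys. With the replicate block the WT counts were 4 higher (Aen, Ckap2, Gtse1 and Sfn) and 3 lower (Btg2, Ddit4 and Ephx1), against 2.67% and 3.49% of all genes. With DESeq2 they were 5 and 3, against 2.67% and 2.65%. In Tet2-/- kidneys both fits gave 10 and 6. The shares of all genes there were 13.1% and 12.6% with the block and 11% and 10.2% with DESeq2. With 1 library left out, Ckap2, the WT growth arrest call, was lost in 5 of 6 fits, all but the one without WT IR replicate 1. Their median log2 fold changes were −0.02 and 0.09, beside −0.03 and 0.04 for all genes tested. By function in Tet2-/- kidneys, 5 of 10 growth arrest targets were called higher, 5 of 12 cell death targets were called higher, 1 of 8 DNA repair targets was called lower and 5 of 12 targets in metabolism and redox defence were called lower. With limma on log2(FPKM + 1) these counts were 2, 3, 1 and 2, beside 8.8% of all genes called higher and 4.99% lower, and the difference between the functions was not tested. Growth arrest calls fell to 3 without Tet2-/- baseline replicate 3 or IR replicate 2, and those of metabolism and redox to 3 without Tet2-/- baseline replicate 2 or 3.

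**Figure D3:**
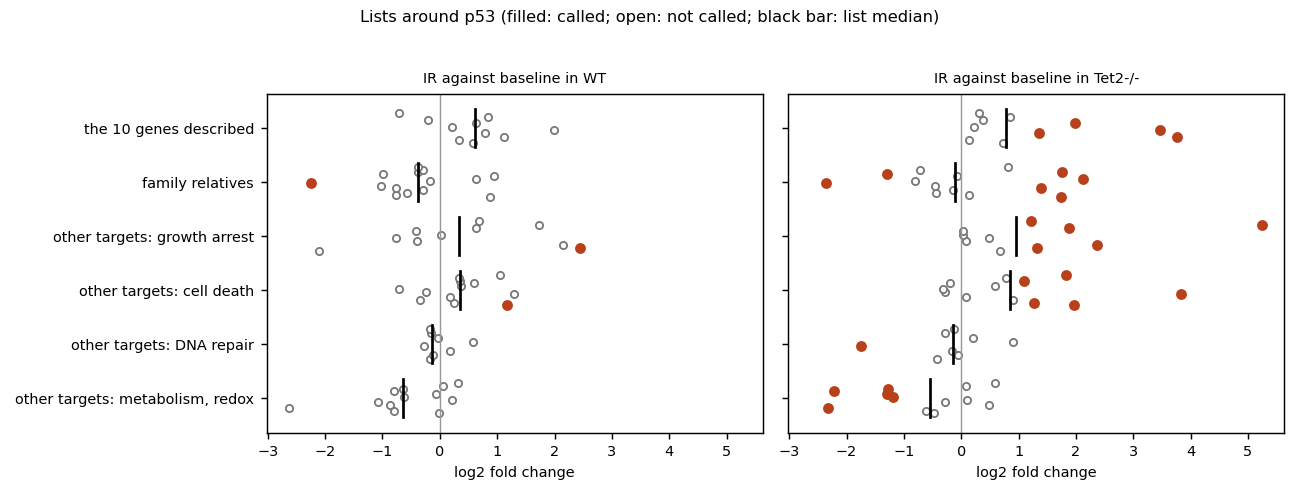
Log2 fold change (x axis) of IR against baseline in WT (left) and Tet2-/- kidneys (right) for the 10 genes, their family relatives and 4 functional lists of other p53 targets (y axis); each point is a gene, filled if called by edgeR, and the black bar is the list's median. In Tet2-/- kidneys the medians of the growth arrest and cell death lists lie at 0.95 and 0.84 and that of the metabolism and redox list at −0.54.

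Among the growth arrest targets, Sfn, which encodes 14-3-3 sigma and sequesters mitotic CDK1 complexes, was at 1.28, 3.89 and 2.41 FPKM in WT baseline, 1.16, 0.396 and 0.647 in Tet2-/- baseline, 5.25, 11.8 and 9.02 in WT IR and 31.6, 39.5 and 26.8 in Tet2-/- IR libraries. It rose by 5.24 ± 0.38 on the log2 scale after IR in Tet2-/- kidneys (edgeR's quasi-likelihood test, adjusted p = 1.4e-04) and was 1.80 ± 0.29 higher in Tet2-/- than in WT kidneys after IR (adjusted p = 0.0176), a call lost without Tet2-/- IR replicate 1 (adjusted p = 0.0540). Gtse1, which shuttles p53 out of the nucleus in G2, rose by 2.36 ± 0.32 in Tet2-/- kidneys (edgeR, adjusted p = 0.00117), from 0.145 to 0.262 FPKM at baseline to 0.934 to 1.40 after IR. The other 3 called were Rprm, Zmat3 and Ckap2, at 1.88, 1.22 and 1.33.

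Among the cell death targets, Aen, an exonuclease that degrades DNA in apoptosis, was called in both genotypes. Its FPKM was 6.20, 6.30 and 6.66 in WT baseline, 4.97, 6.14 and 4.60 in Tet2-/- baseline, 13.4, 17.4 and 14.5 in WT IR and 25.3, 23.5 and 24 in Tet2-/- IR libraries, so that the groups after IR did not overlap each other or baseline. The log2 fold changes were 1.18 ± 0.13 in WT (edgeR, adjusted p = 0.0108, lost without WT baseline replicate 1 at 0.0584) and 1.96 ± 0.14 in Tet2-/- kidneys (adjusted p = 1.4e-04). Tnfrsf10b, a death receptor for TRAIL, rose by 1.82 ± 0.26 in Tet2-/- kidneys (edgeR, adjusted p = 0.00149), and the other 3 called were Eda2r, Apaf1 and Pmaip1, at 3.83, 1.27 and 1.09. Bbc3, Fas and Perp, further death targets, were not called in any comparison by edgeR with TMM, all libraries and no block. Bbc3 passed the interaction with the block, with DESeq2 and without WT IR replicate 2, and was called higher after IR in Tet2-/- kidneys with library sizes alone, with limma on log2(FPKM + 0.1) and without Tet2-/- IR replicate 1.

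Among the targets in metabolism and repair the called genes fell. Ddit4, an inhibitor of mTORC1 that also answers to hypoxia and glucocorticoids, was at 85.7 to 127 FPKM in Tet2-/- baseline and 18.8 to 31.7 in Tet2-/- IR libraries and fell by 2.33 ± 0.23 on the log2 scale (edgeR, adjusted p = 4.0e-04). In WT it was at 201, 123 and 36.2 FPKM at baseline and 20.5, 24.4 and 16.2 after IR, a log2 fold change of −2.63 ± 0.55 (edgeR, adjusted p = 0.0566) that was called with the block and with DESeq2, and the interaction was 0.34 ± 0.62 (edgeR, adjusted p = 0.770). Pank1, which starts coenzyme A synthesis, fell by 2.21 ± 0.28 in Tet2-/- kidneys (edgeR, adjusted p = 8.7e-04), and the other 3 were Lpin1, Pltp and Gpx1. Between the genotypes after IR, Sfn was the 1 of the 42 called higher and Pank1 the 1 called lower, beside 2.3% and 3.85% of all genes. Pank1 had a log2 fold change of −1.24 ± 0.27 (edgeR, adjusted p = 0.0353) whose call was lost in 5 of the 6 fits with 1 library left out. In that comparison the block added Lpin1 as lower, and DESeq2 called 4 higher (Btg2, Gtse1, Plk3 and Sfn) and 3 lower (Lpin1, Mgmt and Pank1), beside 4.14% and 4.49% of all genes. Mgmt, which repairs alkylated guanine, fell by 1.75 ± 0.30 (edgeR, adjusted p = 0.00343).

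Genes of the cell cycle itself and of the ATF4 pathway were listed beside the targets. Of 20 cyclins, CDKs and S-phase or mitosis genes, 4 were called higher in WT and 7 in Tet2-/- kidneys after IR and 0 lower in either, beside 1.46% and 12.7% of all genes higher. With the replicate block, as with DESeq2, 8 were called higher in each genotype. In WT kidneys 2.67% of all genes were called higher by either fit. In Tet2-/- kidneys 13.1% were with the block and 11% with DESeq2. With 1 library left out the counts of calls in WT ran from 2 (without any 1 WT baseline library) to 6 (without WT IR replicate 1). In Tet2-/- kidneys they ran from 4 higher (without Tet2-/- baseline replicate 1 or IR replicate 2) to 10 (without Tet2-/- IR replicate 1). The replication licensing genes Mcm2 and Mcm5 were called in both: log2 fold changes of Mcm5 were 2.77 ± 0.21 in WT and 2.44 ± 0.49 in Tet2-/- kidneys, and those of Mcm2 2.13 ± 0.19 and 2.04 ± 0.25 (edgeR, adjusted p from 7.5e-04 to 0.00760). Between the genotypes after IR none of the 20 was called by edgeR, with 4 under an unadjusted p of 0.05, as were 4671 of 16186 genes. Of 10 ATF4 and CHOP genes, 1 was called higher in WT and 5 in Tet2-/- kidneys after IR, and 2, Eif4ebp1 and Ppp1r15a, between the genotypes after IR, beside 2.3% of all genes, each lost in 5 of the 6 fits with 1 library left out. The replicate block lost Ppp1r15a there (edgeR, adjusted p = 0.0637), DESeq2 called 4 (Chac1 and Trib3 as well) and limma on log2(FPKM + 1) 3 (Chac1 as well). Of all genes, the block called 2.95% higher there, DESeq2 4.14% and limma 1.4%. The WT count after IR depended on the fit. It was 3 higher and 1 lower with the replicate block, where 2.67% and 3.49% of all genes were. With DESeq2 it was 4 higher and 1 lower, beside 2.67% and 2.65% of all genes. It was 0 in 4 of the 6 fits with 1 library left out. The Tet2-/- count was 5 higher with the block and with DESeq2, beside 13.1% and 11% of all genes. Psat1, of serine synthesis, rose by 3.60 ± 0.42 in Tet2-/- kidneys and Eif4ebp1, a brake on translation, by 2.86 ± 0.28 (edgeR, adjusted p = 6.7e-04 and 3.8e-04). Of 15 tested p53 regulators and DNA damage kinases, 1 was called higher in WT (Chek1) and 2 in Tet2-/- kidneys (Hipk2, 1.90 ± 0.32, and Chek1); the WT call was lost in 4 of the 6 fits with 1 library left out, those without WT baseline replicate 1 or 3 or WT IR replicate 2 or 3. Hipk2, a kinase that phosphorylates p53, was at 0.548 to 0.777 FPKM in Tet2-/- baseline and 1.60 to 3.84 in Tet2-/- IR libraries.

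The summed levels of markers of tubular injury and of neutrophils were, like Cdkn1a and Gdf15, highest in the Tet2-/- IR libraries. The summed FPKM of the injury markers Havcr1 and Lcn2 was 3.94 to 24.2 over the 6 baseline libraries, 288, 1035 and 829 in WT IR and 2574, 2716 and 2340 in Tet2-/- IR libraries. WT IR replicate 1, which had the lowest injury markers of the 6 IR libraries, also had the lowest Cdkn1a and Gdf15 of the 6. Lcn2 alone kept the genotypes apart after IR, at 74.2 to 476 in WT and 908 to 1923 FPKM in Tet2-/- libraries, while Havcr1 overlapped, at 214 to 670 and 652 to 1432, and edgeR called neither between the genotypes. Within the Tet2-/- IR libraries the order differed: replicate 2 had the highest injury sum and the lowest Cdkn1a and Gdf15, and replicate 3 had the lowest injury sum and the highest Cdkn1a. The summed FPKM of 8 neutrophil markers was 0.609 to 2.79 at baseline, 4.03, 9.44 and 6.16 in WT IR and 133, 125 and 75.1 in Tet2-/- IR libraries. No count of called markers is given for them, because the low-count filter let in 7 of the 8 in Tet2-/- and 3 in WT kidneys. S100a8 and S100a9 made up most of that sum, and Elane was at 0 in 4 of the 6 IR libraries. Summed FPKM of 8 macrophage markers was 26.4 to 43.4 in WT IR and 52.6 to 85.4 in Tet2-/- IR libraries. On mean log2(FPKM + 0.1) these groups overlapped, at −0.07 to 0.97 and 0.76 to 2.11. Between the genotypes after IR edgeR called 2 of the 8 higher and 0 lower, beside 2.3% and 3.85% of all genes. After IR in Tet2-/- kidneys 3 were called higher and 1 lower, at −2.69, beside 12.7% and 11.6% of all genes. Summed FPKM of 8 lymphocyte markers was 0.172 to 1.58 over the 6 IR libraries. The part of these cells in the levels of the 10 genes was not tested.

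**Figure D4:**
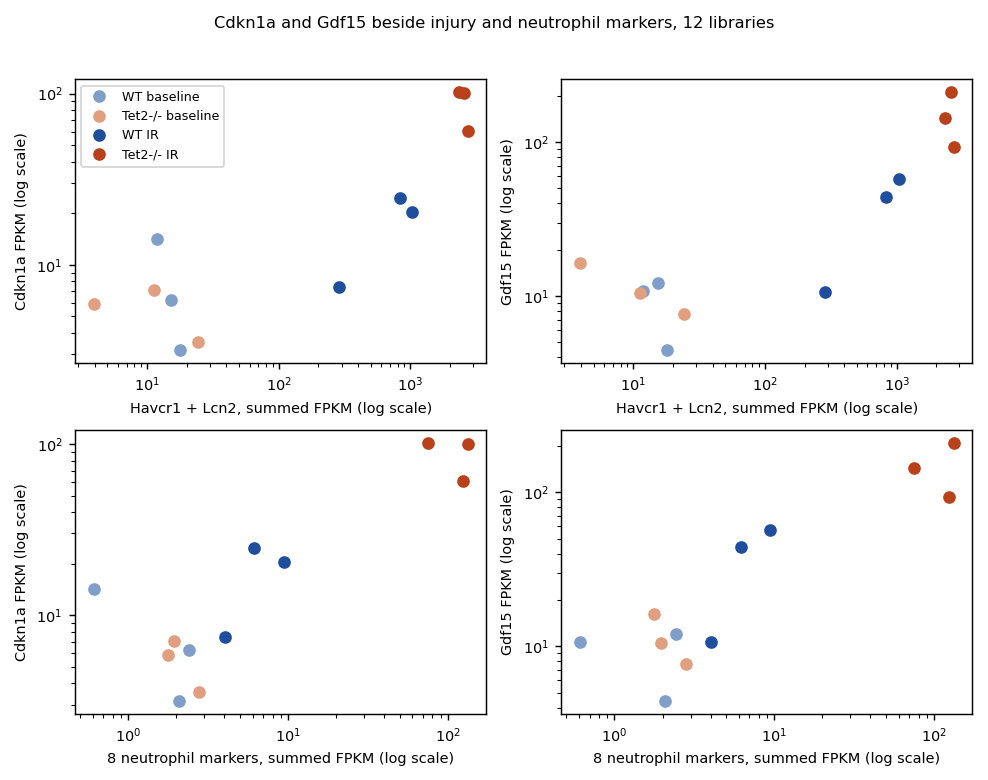
FPKM of Cdkn1a (left) and Gdf15 (right, y axes) against the summed FPKM of Havcr1 and Lcn2 (top) or of 8 neutrophil markers (bottom, x axes), all on log scales, with 1 point for each of the 12 libraries. The Tet2-/- IR libraries, with injury markers of 2340 to 2716, hold the top of each panel, and the WT IR library with injury markers of 288 lies at the level of the baseline libraries for both genes.

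The genes most like Cdkn1a and Trp53 over the 12 libraries were found by the smallest root mean square difference between log2 normalized counts, each gene centred on its own mean, among the 12197 genes whose mean FPKM reached 1. For Cdkn1a, Maff, which encodes a small bZIP factor, was among the 3 most alike (0.481), where Cdkn1a itself varied by 1.64 around its mean. Maff had mean FPKM of 2.64, 2.0, 6.69 and 20.9 in WT baseline, Tet2-/- baseline, WT IR and Tet2-/- IR libraries. For Trp53 they were Lpcat4 (0.109), Dancr (0.139) and Cdk2 (0.144), where Trp53 varied by 0.493. Cdk2, a kinase that p21 inhibits, had mean FPKM of 3.53, 4.01, 6.06 and 9.63 in the same groups.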

How the data were processed

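Total RNA of frozen whole kidney was sequenced by a service provider. The authors used STAR for alignment to mm9 and HOMER for counting over RefSeq transcripts, and versions are not given in the sources used here. The deposited expected counts are not normalized and rise in steps of 0.5 (38.7% of values not whole), and the deposited FPKM scale the same transcripts by length and depth. The tables give 34600 transcripts for 24421 symbols, and the transcript with the highest total stood for each symbol. The expected counts, which the design had taken as whole, were rounded for edgeR and DESeq2. Total counts of 51007366 to 107969888 limit counting error only, and the library was the unit of every test.

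Each comparison used its own 6 libraries in edgeR 4.0.16 (R 4.3.3): TMM, the standard low-count filter, the quasi-likelihood test and Benjamini-Hochberg adjustment, with limits of 0.05 on the adjusted p and 1 on edgeR's absolute log2 fold change. The study's Methods use the same limits but set the fold limit on log2 FPKM, which was tried as an alternative chosen after seeing the data. Between the genotypes the study reports more genes than the 2 called here at baseline and the 996 after IR. Why the numbers differ was not tested. The interaction used all 12 libraries and no fold threshold. Labels do not tie libraries to litters or days. Same-numbered libraries of 1 genotype deviated together from their group means between baseline and IR (r = 0.349, 0.349 and 0.344 for WT pairs, and 0.12, 0.35 and 0.202 for Tet2-/- pairs), so the replicate block was fitted as an alternative. Between genotypes they did not in every pair (−0.173 to 0.052 at baseline and 0 to 0.303 after IR). Differently numbered libraries were not compared, so these values do not establish a pairing.

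Alternatives were DESeq2 1.42.0, library sizes alone, no filter, limma 3.58.1 on log2(FPKM + 1) and log2(FPKM + 0.1), the block, all 12 libraries in 1 fit, all transcripts, no fold threshold, each library left out, and WT baseline replicates 2 and 3 left out together. The last leaves 1 WT baseline library, so its calls cannot be weighed against those of the other fits. Scripts were tested on simulated data. Of the starts, 11867 of 20760 equalled an annotated start and 938 did after adding 1, so coordinates were read as counted from 1. Member transcripts were aligned to mm9 for copies elsewhere. The text names the 10 genes, 15 relatives, and from each other list up to 2 called genes a direction and comparison that changed most on the log2 scale, provided that the groups did not overlap and one had a mean FPKM of 1 or more; list genes outside this rule were named after their values were seen. The 10 genes and all lists were chosen with earlier results of these data known. Some of the genes most like Cdkn1a are not reported here. Plots used matplotlib 3.10.9 (Python 3.11.15).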

Additional observations from a re-analysis of the deposited data

Results flagged for a closer look

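Of the 117 genes tested that are listed around p53, the 10 genes and their relatives included, 8 (6.84%) passed the genotype by IR interaction in edgeR's quasi-likelihood test (adjusted p under 0.05), the test of the difference between the genotypes in their change after IR. Of all genes tested 9.18% passed it. With the replicate block 16.2% of the 117 passed beside 12.6% of all genes, and with DESeq2 17.8% of 118 passed beside 5.9% of all genes with a higher and 7.69% with a lower value. The interaction on the log2 scale was 3.54 for Sfn, 2.57 for Eda2r, 2.34 for Psat1, 1.52 for Eif4ebp1 and 0.82 for Aen, all with the larger rise in Tet2-/- kidneys, and −1.44 for Mgmt, −1.37 for Pank1 and −0.89 for Ccnd3. Eda2r and Ccnd3 were named after their values were seen, and Eda2r was at most 0.57 FPKM in any library. Sfn kept its call in all 12 fits with 1 library left out, whereas the others lost theirs in 6 (Aen and Mgmt) to 10 (Eif4ebp1) of the 12. The direction was the same in each of those fits. Without WT baseline replicates 2 and 3, the libraries with high adipocyte markers, Sfn was at 2.53. That fit has 1 WT baseline library, so it cannot decide whether the calls hold. The part of library composition in these differences was not tested.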

How the results depend on the processing

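The 4 calls after IR in Tet2-/- kidneys (Cdkn1a, Gdf15, Phlda3 and Gadd45a) were kept in each of the alternatives listed under the processing that use those libraries; leaving out WT baseline replicates 2 and 3 does not bear on them. Trp53 was called too (5 in all) with library sizes alone and with limma on log2(FPKM + 1), where 17.5% and 8.8% of all genes were called higher. With no fold threshold 6 of the 10 were higher, beside 22.9% of all genes. With the fold limit on mean FPKM, chosen after seeing the data, Trp53 was again called (5 in all), and the counts of the other comparisons stayed at 0, 0 and 1. In WT kidneys after IR the count of called genes was 0, and it was 1 with DESeq2 (Gdf15), 1 with no fold threshold (Trp53), and 0 to 1 with 1 library left out. Between genotypes at baseline it was 0, and 1 with DESeq2 (Phlda3). After IR it was 1, and it was 2 with DESeq2 or all 12 libraries in a single fit (Cdkn1a and Gdf15) and 0 with any 1 library left out. For the interaction it was 0, and it was 2 with DESeq2, 3 with library sizes alone, 1 with limma on log2(FPKM + 1), 2 on log2(FPKM + 0.1), 2 with the replicate block, and 0 to 1 with 1 library left out. The replicate block changed no other call of the 10 genes. Why these counts moved was not tested.

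Of 820 values of the 10 genes under alternatives, 30 changed sign, all of them in results that were not called (lowest adjusted p 0.613, edgeR or limma). Gadd45a between genotypes at baseline was −0.0386 with library sizes alone, −0.01 with limma at either pseudocount (−0.0123 and −0.0111), −0.0022 in the 12-library fit and −0.46 without WT baseline replicates 2 and 3, and ran from −0.14 to 0.36 with 1 library left out. Ccng1 at baseline was 0.0533 without those 2 libraries and ran from −0.36 to 0.0055, and Cdkn1a from −0.80 to 0.32. Sesn2 ran from −0.38 to 0.0049 after IR in WT and from −0.0195 to 0.24 between genotypes after IR. In the interaction Trp53 was −0.0173 with all transcripts and ran from −0.0598 to 0.14, Mdm2 was −0.0227 with all transcripts and −0.11 without WT baseline replicates 2 and 3 and ran from −0.073 to 0.14, and Bax was −0.088 without those 2 and ran from −0.13 to 0.30.

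With 3 libraries a group, the tests cannot separate small differences from the spread between mice, and a missed threshold does not show equality. Low genes such as Eda2r and Trp73 rest on few reads.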
